A study of Mus musculus with 16 samples.

Results

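The cell cycle genes examined here are 36 genes that act when a cell copies its DNA and divides, together with a pair of genes of the granule neuron lineage, the cell lineage that divides most in the growing cerebellum. They were taken as a fixed list of symbols from the 27669 gene names on the Agilent arrays, with Cdk1 found under its older name Cdc2a, and every probe of each gene was read, 61 probes in all. By role, 6 genes control the G1 phase before DNA synthesis, 10 make or copy DNA, 16 act in mitosis, 2 are inhibitors of the cyclin-dependent kinases and 2 mark the granule lineage. Whole cerebella of 3-week-old mice were hybridised to one-colour arrays, 4 from Npc1-/- and 4 from Npc1+/+ (wild-type) mice. The Npc1-/- mice carried the Npc1m1N allele of the BALB/cNctr-Npc1m1N/J line on a BALB/c background, and were bred in house from heterozygous parents. Npc1 encodes a lysosomal membrane protein that carries cholesterol out of the lysosome, and the allele removes its function in every cell. The labels name 8 mice but not which mouse went to which array, and the p-values measure the spread between these 4 arrays of each genotype.

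In the postnatal cerebellum, granule neuron precursors divide in the outermost layer of the cortex under the influence of sonic hedgehog, which Purkinje cells secrete, and that layer is used up as the cells leave the cycle and migrate inward. Atoh1 is the transcription factor of the dividing precursor, and Dcx is a microtubule-binding protein of migrating young neurons. The cycle itself runs on 2 waves of transcription: E2F factors switch on the genes of DNA synthesis late in G1, and a second wave, in which the MuvB complex takes part, brings on the genes of mitosis. By weaning age the granule precursors have largely finished dividing, while oligodendrocyte precursors still divide.

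The promoters of 4 members are given, 1 replication gene and 3 mitosis genes, because their values are described in full and because they show the range of motif patterns, from E2F matches in Mcm5 and a CHR in Cdc20 to both in Mki67 and neither in Bub1. Each is the 250 bases before the annotated transcription start, 5′ to 3′ on the gene's strand, from RefSeq on mouse build GRCm38.p6. Capitals mark every match to the E2F motif (TTGGCGC as the first form, TTCCCGC as the second, TTGCCGC as the third and TTCGCGC as the fourth), to the CCAAT box (CCAAT) or to the cell cycle homology region, CHR (TTTGAA), on either strand. The windows are Mcm5 at chr8:75109259-75109508 on the plus strand, Cdc20 at chr4:118437344-118437593, Bub1 at chr2:127831860-127832109 and Mki67 at chr7:135716380-135716629, the last 3 on the minus strand.
Mcm5: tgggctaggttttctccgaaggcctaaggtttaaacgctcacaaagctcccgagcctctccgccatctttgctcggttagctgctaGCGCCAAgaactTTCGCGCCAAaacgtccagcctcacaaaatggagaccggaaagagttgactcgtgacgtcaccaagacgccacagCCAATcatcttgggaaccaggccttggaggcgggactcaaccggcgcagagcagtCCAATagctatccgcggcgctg
Cdc20: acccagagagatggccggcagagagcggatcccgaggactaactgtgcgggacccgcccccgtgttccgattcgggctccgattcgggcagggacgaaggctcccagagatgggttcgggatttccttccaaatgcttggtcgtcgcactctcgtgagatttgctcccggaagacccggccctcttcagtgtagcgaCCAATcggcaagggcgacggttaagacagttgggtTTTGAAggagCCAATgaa
Bub1: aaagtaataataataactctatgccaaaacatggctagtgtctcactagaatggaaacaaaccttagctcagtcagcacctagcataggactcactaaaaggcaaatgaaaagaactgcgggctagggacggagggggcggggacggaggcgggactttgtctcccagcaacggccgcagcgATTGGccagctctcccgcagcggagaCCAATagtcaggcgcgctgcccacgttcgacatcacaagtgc
Mki67: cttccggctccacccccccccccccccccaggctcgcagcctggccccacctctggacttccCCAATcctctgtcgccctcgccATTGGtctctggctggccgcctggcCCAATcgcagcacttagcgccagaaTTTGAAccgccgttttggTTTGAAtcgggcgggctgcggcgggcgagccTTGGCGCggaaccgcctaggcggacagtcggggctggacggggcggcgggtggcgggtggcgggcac
The Mcm5 window held 3 E2F matches, at 164, 152 and 149 bases before the start, of which the nearer pair overlap, and CCAAT boxes at 77 and 22 bases. Cdc20 had a CHR at 18 bases, between CCAAT boxes at 53 and 8 bases. Bub1 had CCAAT boxes at 68 and 42 bases and neither of the other motifs. Mki67 had CHR matches at 116 and 98 bases, 3 CCAAT boxes and 1 E2F match at 67 bases.

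The same search covered windows of 300 bases (250 before the start and 50 after) for the members found in the reference table, 9 of the 10 replication genes with 10 promoters and 14 of the 16 mitosis genes with 14 promoters. An E2F motif was in 70.0% of the replication promoters, in 21.4% of the mitosis promoters and in 9.57% of all 32851 promoters of the table. The CHR ran the other way, in 10% of the replication promoters, 71.4% of the mitosis promoters and 17.9% of all. CCAAT boxes were common in both sets, at 90.0% and 85.7%, against 37.4% of all promoters. No promoter of either set held TATAAA, which 13.6% of all promoters did. The larger lists of cell cycle genes that were not members showed the same contrast, with E2F in 57.1% of 42 promoters of other replication genes and CHR in 71.1% of 45 promoters of other mitosis genes. E2F and reverse CCAAT letters can share bases, as can neighbouring E2F letters. A match describes the letters only, and the arrays measured no binding.

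**Figure D1:**
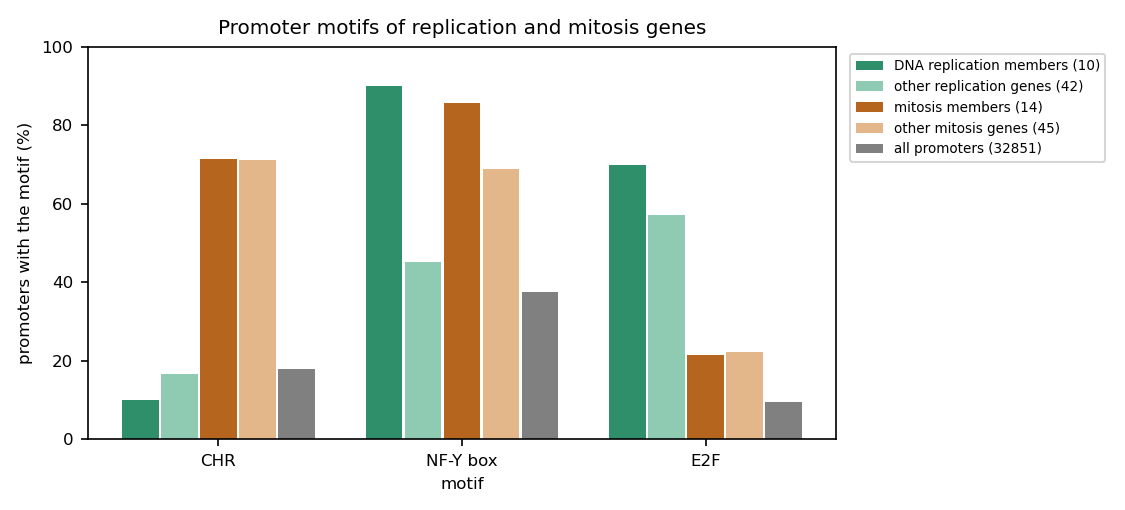
Percentage of promoters (vertical axis) that hold the CHR, the CCAAT box (labelled NF-Y box after the factor that binds it) or the E2F motif on either strand (horizontal axis), in the member sets, the lists of other genes and all promoters of the RefSeq table, with the number of promoters in brackets. CHR marks the mitosis sets (71.4% and 71.1%) and E2F the replication sets (70.0% and 57.1%).

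Signals are given as log2 of the scanner's processed signal minus the 75th percentile of that array, so a value of 1 higher is a doubling, and values of different probes are not compared with each other. The 8 arrays correlated at 0.969 to 0.994 over genes, and had 22182 to 28137 of 41174 probes well above background, a flag the scanner software sets for each spot. A pair of wild-type arrays stood apart. Replicate 3 lay at 73.0 on the first principal component (47.0% of the variance; the others lay at -36.5 to 23.0). Replicate 2 had the fewest probes above background and the highest floor: its lowest signal above background was -3.90, against -6.04 to -5.36 elsewhere. Npc1 itself was at -2.60 to -2.32 on the Npc1-/- arrays and at -0.64 to -0.37 on the wild-type arrays, as the labels say. Cerebellar identity was plain, since Zic1 and Gabra6 of granule neurons and Calb1 and Pcp2 of Purkinje cells were well above background on all 8 arrays.

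At 3 weeks the replication genes were nearly all measurable. Several mitosis genes were at or under the background in both genotypes, at about the rate of all genes. Of the 10 replication members, 9 or 10 had a probe above background on each array. Of the 16 mitosis members, 11, 12, 10 and 9 did on the Npc1-/- arrays and 10, 10, 12 and 13 on the wild-type arrays, so the genotypes overlapped. Of the 16, 10 had a probe well above background on at least 4 arrays, as had 17983 of all 27669 gene names. These shares were close. Over all members, 26 were above background on all 8 arrays by at least 1 probe, and 4 on none: the S-phase kinase Cdk2, the mitotic kinase Aurkb, the spindle checkpoint kinase Bub1b and Atoh1. Single arrays detected cyclin B1, Ccnb1 (wild-type replicate 3), and the spindle motor Kif11 (wild-type replicate 4).

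The mitotic kinase Cdk1 was above background on 3 arrays, at -4.75 on Npc1-/- replicate 2 and at -4.38 and -4.64 on wild-type replicates 3 and 4. Topoisomerase Top2a, which untangles replicated DNA, was above background by its best-detected probe on Npc1-/- replicates 1 and 2 (-5.70 and -5.53) and wild-type replicate 4 (-5.21). A different Top2a probe read -3.11 on wild-type replicate 2 and -7.90 to -7.23 on the other 7 arrays. A second Rrm1 probe likewise read -1.78 on that array and -4.28 on Npc1-/- replicate 4, against -7.86 to -7.50 elsewhere, while the main Rrm1 probe showed no such jump. These probes, and 18 probes that no array measured above background, were not tested.

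**Figure D2:**
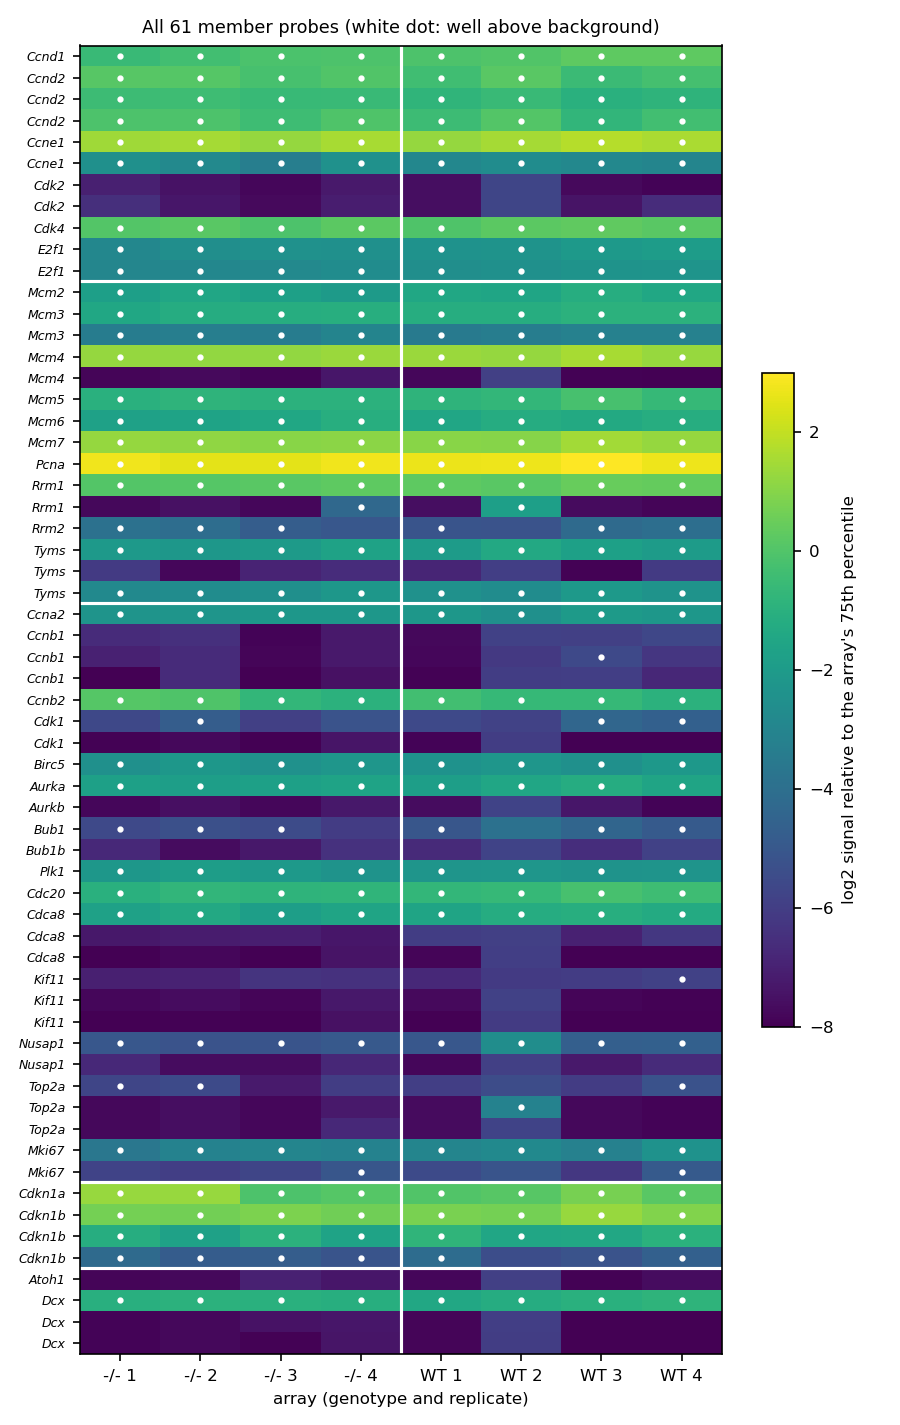
Log2 signal relative to the array's 75th percentile (colour) of all 61 member probes (rows, grouped by role from G1 control at the top to granule lineage at the bottom) on the 4 Npc1-/- (-/-) and 4 wild-type (WT) arrays. White dots mark spots well above background: 33 probes have a dot on all 8 arrays and 18 on none, and several of the dimmest probes, such as Aurkb, read highest on wild-type replicate 2.

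No member passed the test for a difference between genotypes. The test, limma, took probes that at least 4 arrays flagged as well above background, and read each gene from its brightest probe. That left 28 members, by 36 probes, among 17983 genes. None of the 28 reached a Benjamini-Hochberg adjusted p under 0.05, against 0.767% of all genes (0.734% higher and 0.0334% lower in Npc1-/-). Taken by probe, none of the 36 passed either, against 0.523% of all probes. The lowest adjusted p of a member was 0.214, for Bub1. At an unadjusted p under 0.05, 7 members were lower in Npc1-/- and 0 higher, where 7.4% of all genes passed, 2.31% lower and 5.09% higher. In 5 members (Ccnd1, E2f1, Mcm5, Bub1 and Cdc20) every Npc1-/- array lay below every wild-type array, as in 1.95% of all genes, and no member had the reverse order, as 2.96% did (4.92% in either direction). A negative difference was found in 22 of the 28 tested members, against 53.4% of all genes, and their median was -0.17 against -0.02 over all genes. The 95% interval of the difference included 0 for 21 of the 28.

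The count at an unadjusted p moved with single arrays. Wild-type replicate 3 was the highest array for 14 of the 28 members, and Npc1-/- replicate 1 the lowest for 9. The matching shares over all genes were not counted. Wild-type replicate 3 also had the highest median deviation over all genes tested, at 0.04. The 7 lower members at an unadjusted p under 0.05 became 2 without wild-type replicate 3 (all genes 1.66%), 2 without wild-type replicate 4 (1.5%), 4 without Npc1-/- replicate 3 (2.21%) and 1 without Npc1-/- replicate 1 (1.25%). With the slide as a block the number was 3 (1.71%). Leaving out an array cannot make separate groups overlap. The count of non-overlapping members could thus not fall in this way, and it is no check of stability. Because whole tissue was measured, fewer dividing cells and less RNA per cell cannot be told apart.

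**Figure D3:**
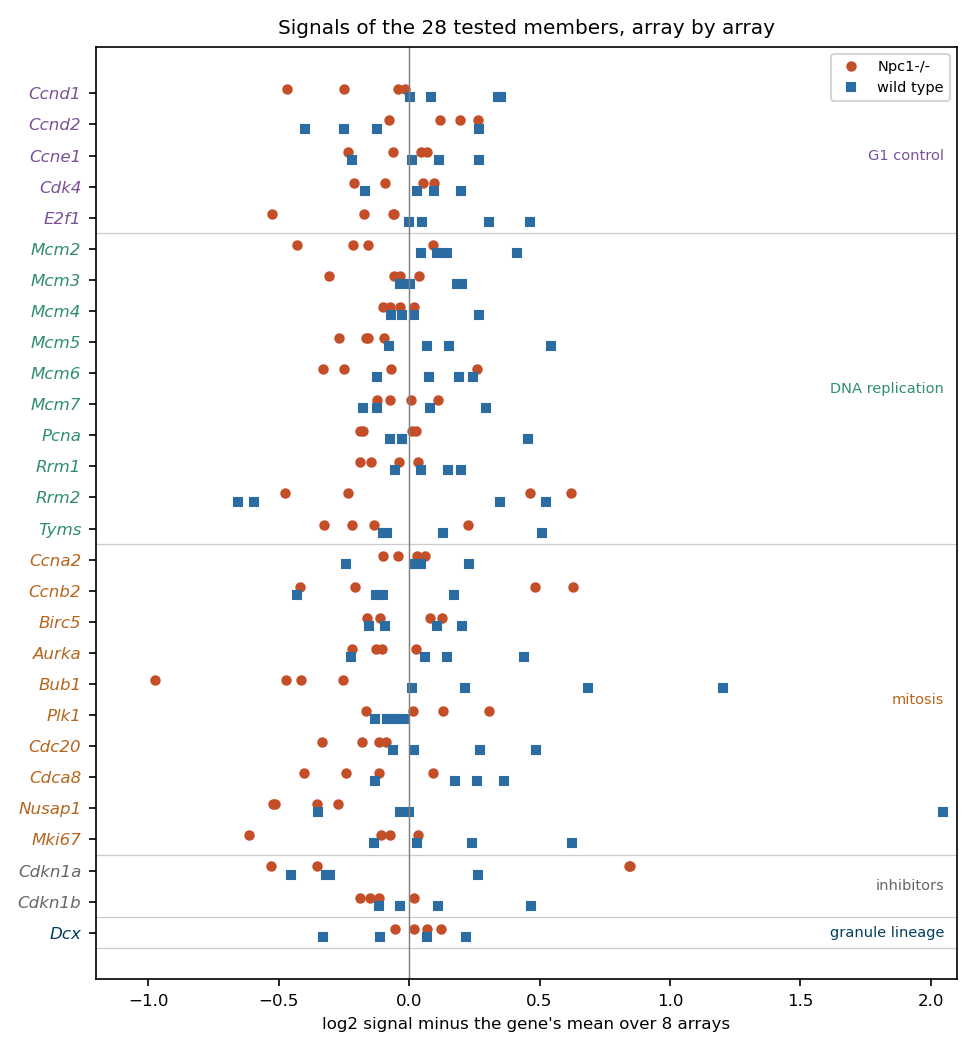
Log2 signal of each of the 28 tested members on every array, minus the gene's mean over the 8 arrays (horizontal axis), with Npc1-/- arrays as circles and wild-type arrays as squares, grouped by role. The groups do not overlap for Ccnd1, E2f1, Mcm5, Bub1 and Cdc20, and the square far to the right in the Nusap1 row is wild-type replicate 2.

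Among the G1 genes, cyclin D1 and E2F1 gave lower values in Npc1-/- cerebellum and cyclin D2 did not, and none of them passed the test over all genes. Cyclin D1 (Ccnd1), which joins Cdk4 to inactivate the retinoblastoma protein, read -0.54, -0.32, -0.11 and -0.08 on the 4 Npc1-/- arrays and -0.06, 0.02, 0.28 and 0.27 on the 4 wild-type arrays. The groups did not overlap, but Npc1-/- replicate 4 and wild-type replicate 1 were almost level. The difference was -0.39 ± 0.14 (SE), or 23.7% lower, with a limma unadjusted p of 0.021 and adjusted p = 0.502. Within the slides that held both genotypes, slides 2, 3 and 4, it was -0.60, -0.33 and -0.05.

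E2f1, the transcription factor that switches on DNA synthesis genes, was read by a pair of neighbouring probes (chr2:154301126-154301185 and chr2:154300864-154300923, minus strand, mm7 build of the file headers; the files do not give exon or intron). The brighter probe gave -2.93, -2.57, -2.46 and -2.46 in Npc1-/- and -2.40, -2.35, -2.09 and -1.94 in wild type. Its difference was -0.41 ± 0.15 (SE), with limma adjusted p = 0.542. The second probe gave -0.40 ± 0.11 (SE), with adjusted p = 0.327 over all probes, and its groups did not overlap either. Both probes thus placed the arrays of each genotype on the same sides, although they measure the same RNA and are not separate evidence.

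Cyclin D2 (Ccnd2), a D-type cyclin of cerebellar granule precursors, read 0.16, 0.09, -0.18 and 0.01 in Npc1-/- and -0.35, 0.17, -0.50 and -0.23 in wild type. Its groups overlapped through wild-type replicate 2, and its 3 probes gave differences of 0.25, 0.31 and 0.24 (limma adjusted p = 0.753 for the brightest). Cyclin E1 (Ccne1), the partner of Cdk2, differed by -0.09 and 0.09 on its 2 probes, with overlapping groups. Cdk4, the kinase bound by the D cyclins, differed by -0.08 ± 0.11 (SE).

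None of the 10 replication genes was called, and 2 were lower at an unadjusted p under 0.05 (against 2.31% of all genes). Their differences were negative in 9 of 10, against 53.4% of all genes, with a median of -0.17. The 6 Mcm genes encode the ring-shaped helicase that opens DNA at replication origins, and all 6 had negative differences, from -0.36 for Mcm2 to -0.04 for Mcm7, which turned to 0.012 with quantile normalization. Mcm5 (probe at chr8:73669372-73669432, plus strand, mm7) read -1.03, -0.86, -0.92 and -0.93 in Npc1-/- and -0.84, -0.70, -0.22 and -0.61 in wild type. The groups touched without overlapping, and wild-type replicate 3 was far above the other 7 arrays. Its difference was -0.35 ± 0.14 (SE), or 21.3% lower, with limma adjusted p = 0.602.

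Mcm2 read -1.79, -1.48, -1.73 and -2.004 in Npc1-/- and -1.43, -1.53, -1.16 and -1.47 in wild type, with Npc1-/- replicate 2 inside the wild-type range. The difference was -0.36 ± 0.13 (SE), with limma adjusted p = 0.572, and within slides 2, 3 and 4 it was -0.32, -0.37 and -0.30. Of the members at an unadjusted p under 0.05, Mcm2 varied least between slides along with Cdca8. Mcm6, Mcm3, Mcm4 and Mcm7 differed by -0.20, -0.18, -0.09 and -0.04, and their groups overlapped. A second Mcm3 probe gave 0.03.

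Pcna, the sliding clamp of the DNA polymerases, read 2.74, 2.55, 2.54 and 2.76 in Npc1-/- and 2.66, 2.70, 3.19 and 2.71 in wild type. Apart from wild-type replicate 3, the wild-type arrays lay inside the Npc1-/- range, and the difference of -0.16 ± 0.14 (SE; limma adjusted p = 0.753) was -0.04 without that array. Rrm1 and Rrm2 are the subunits of ribonucleotide reductase, which makes deoxynucleotides, and Tyms makes thymidylate. Rrm1 differed by -0.17 ± 0.10 (SE) and Tyms by -0.23 ± 0.17 (SE), with overlapping groups.

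Rrm2 was the only replication gene with a positive difference, 0.19 ± 0.35 (SE). It read -3.91, -4.07, -4.77 and -5.01 in Npc1-/- and -5.13, -5.19, -4.19 and -4.01 in wild type, and was not above background on Npc1-/- replicate 4 and wild-type replicate 2. Each genotype thus held a pair of higher and a pair of lower arrays, and the sign turned with normexp background correction.

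**Figure D4:**
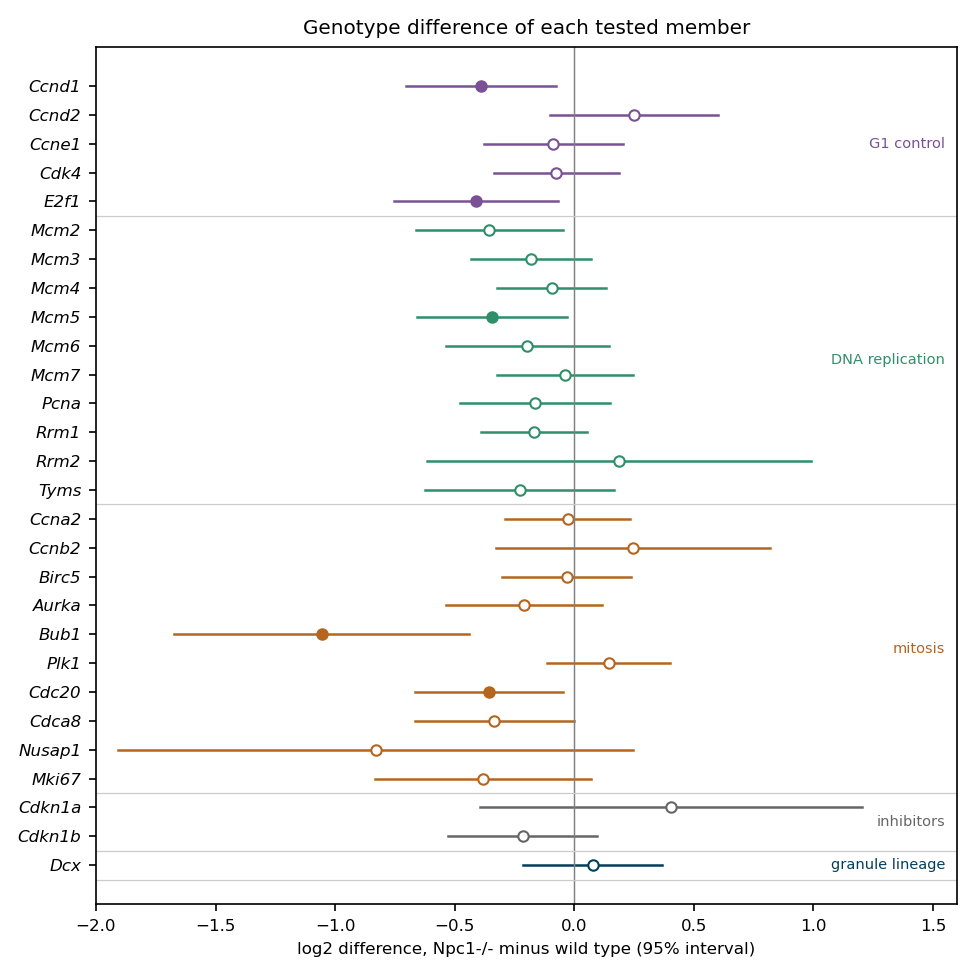
Log2 difference between Npc1-/- and wild type (horizontal axis, points) with its 95% interval (lines) for the 28 tested members by role; filled points mark members whose groups do not overlap. Intervals of 21 members include 0, and Bub1, a dim gene, lies farthest to the left at -1.06.

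The 10 mitosis genes that could be tested had a median difference of -0.27, with 8 negative, 0 called and 3 lower at an unadjusted p under 0.05 (Bub1, Cdc20 and Cdca8), against 2.31% of all genes. The other 6 of the 16 were too dim for the test, so this count does not describe the whole set. Bub1, a spindle checkpoint kinase (probe at chr2:127542105-127542164, minus strand, mm7), read -5.55, -5.33, -5.49 and -6.05 in Npc1-/- and -5.07, -3.88, -4.39 and -4.87 in wild type. The groups did not overlap, but Npc1-/- replicate 4 and wild-type replicate 2, its lowest and highest arrays, were not above background. Its difference was -1.06 ± 0.27 (SE; 95% interval -1.67 to -0.44), or 51.9% lower, with a limma unadjusted p of 0.0040 and adjusted p = 0.214. With normexp background correction, which pulls dim signals together, it shrank to -0.30 or -0.33, depending on the scaling. Without wild-type replicate 2 it was -0.83, and within slides 2, 3 and 4 it was -0.94, -1.93 and -0.42.

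Cdc20 activates the ubiquitin ligase that starts anaphase (probe at chr4:117809370-117809429, minus strand, mm7). It read -1.001, -0.76, -0.85 and -0.78 in Npc1-/- and -0.73, -0.65, -0.18 and -0.40 in wild type. The groups were separated by a narrow gap, and wild-type replicate 3 was again the highest. The difference was -0.36 ± 0.14 (SE), or 21.9% lower, with limma adjusted p = 0.573, and within slides 2, 3 and 4 it was -0.58, -0.24 and -0.12.

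Cdca8, the borealin subunit of the chromosomal passenger complex, read -1.69, -1.36, -1.85 and -1.57 in Npc1-/- and -1.58, -1.19, -1.09 and -1.27 in wild type, with overlap. It differed by -0.34 ± 0.15 (SE; limma adjusted p = 0.670), and by -0.27, -0.44 and -0.27 within slides 2, 3 and 4. The other measurable subunit of that complex among the members, Birc5 (survivin), differed by only -0.03 ± 0.12 (SE). Its kinase Aurkb was not measurable.

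Mki67, the proliferation antigen Ki-67 that coats mitotic chromosomes, read -3.65, -3.11, -3.00 and -3.14 in Npc1-/- and -3.00, -2.79, -3.17 and -2.41 in wild type. The groups overlapped, and the difference was -0.38 ± 0.20 (SE), with limma adjusted p = 0.753. Within slides 2, 3 and 4 it was 0.06, -0.60 and 0.00, so slides 2 and 4 showed nearly none of it.

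Nusap1, a microtubule-bundling protein of the spindle, read -5.00, -5.17, -5.16 and -4.92 in Npc1-/- and -5.00, -2.60, -4.68 and -4.65 in wild type. Its difference of -0.83 ± 0.47 (SE; limma adjusted p = 0.753) came largely from wild-type replicate 2, without which it was -0.29 (adjusted p = 0.490). Cyclin B2 (Ccnb2), a partner of Cdk1, read 0.12, -0.03, -0.72 and -0.93 in Npc1-/- and -0.34, -0.61, -0.64 and -0.94 in wild type. Npc1-/- replicates 1 and 2 lay above all other arrays, and the difference was 0.24 ± 0.25 (SE).

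The S and G2 cyclin Ccna2 and the mitotic kinases Aurka and Plk1 differed by -0.03, -0.21 and 0.14, with SEs of 0.11, 0.14 and 0.11 and overlapping groups. For Plk1 the wild-type arrays were tight, from -2.33 to -2.22, inside an Npc1-/- range of -2.36 to -1.89. The median of the mitosis set was also -0.27 without Ccna2, Mki67 and Top2a, which rise before mitosis begins, but it could not have moved. Top2a was not tested, and Mki67 and Ccna2 lie on opposite sides of the median.

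Set against each other, replication and mitosis genes did not part clearly. On each array the median deviation from the mean of all arrays was taken over the 10 tested genes of each set. The replication set gave -0.20, -0.08, -0.13 and 0.02 on the Npc1-/- arrays and -0.07, -0.03, 0.28 and 0.13 on the wild-type arrays. The mitosis set gave -0.20, -0.06, -0.15 and -0.11 on the Npc1-/- arrays and -0.06, 0.13, 0.10 and 0.12 on the wild-type arrays. In the replication set Npc1-/- replicate 4 stood above wild-type replicates 1 and 2. In the mitosis set every Npc1-/- array lay below every wild-type array, but Npc1-/- replicate 2 (-0.059) and wild-type replicate 1 (-0.057) were almost level. Without wild-type replicate 3 the median differences of the replication and mitosis sets were -0.14 and -0.18. Within slides 2, 3 and 4 they were -0.33, -0.06 and -0.07 for replication and -0.27, -0.21 and -0.07 for mitosis, against -0.03, 0.01 and 0.01 for all genes tested. Slide 2 holds wild-type replicate 3, slide 3 holds wild-type replicate 2, and each of these values rests on 1 wild-type array.

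**Figure D5:**
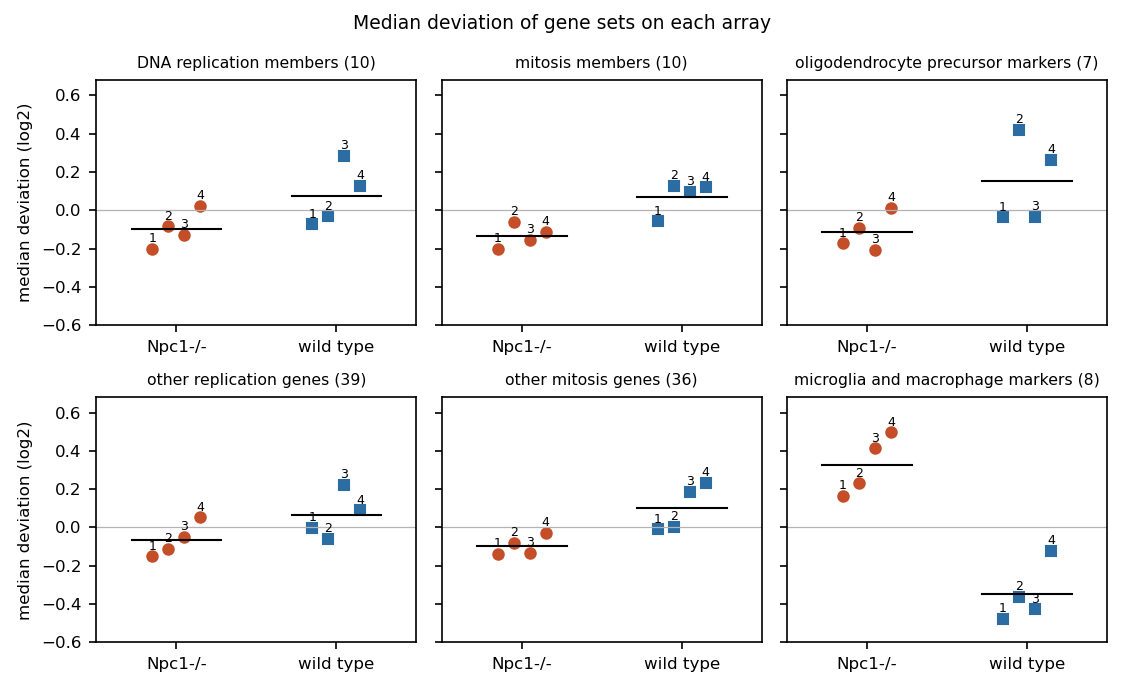
Median deviation (log2) from the mean of all arrays, for each array of either genotype (points, numbered by replicate; bars are group means), over the genes of each set, with the number of genes in brackets. In both replication sets the genotypes overlap, with wild-type replicate 3 highest. In both mitosis sets every Npc1-/- array lies below every wild-type array, by a narrow gap. The nearest arrays are at -0.059 and -0.057 for the members and at -0.029 and -0.010 for the other mitosis genes. Microglia and macrophage markers were higher on every Npc1-/- array.

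The inhibitors differed in sign and neither passed. Cdkn1a (p21), a target of p53, read 1.32, 1.32, -0.05 and 0.12 in Npc1-/- and 0.02, 0.16, 0.74 and 0.17 in wild type. Npc1-/- replicates 1 and 2 were higher than the other 6 arrays, and replicates 3 and 4 were not. The difference was 0.40 ± 0.35 (SE; limma adjusted p = 0.753). The same Npc1-/- arrays, replicates 1 and 2, were the highest for Ccnb2. Cdkn1b (p27), which holds granule neurons out of the cycle, differed by -0.22 ± 0.14 (SE), and by -0.18 and 0.09 on its 2 dimmer probes.

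Of the granule lineage members, Atoh1 was not above background on any array, at -7.92 to -5.91. Dcx read -1.05, -0.95, -1.0004 and -1.12 in Npc1-/- and -1.40, -1.18, -1.002 and -0.85 in wild type. The wild-type arrays spanned the Npc1-/- arrays on both sides, and the difference was 0.08 ± 0.13 (SE; limma adjusted p = 0.853). The other 2 Dcx probes were never above background.

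Other genes of the same pathways, taken from wider lists, held no gene past the threshold. For the counts that follow, the shares over all genes were 2.31% lower and 5.09% higher at an unadjusted p under 0.05. They were 1.95% lower and 2.96% higher without overlap, and 53.4% negative. Of 39 other replication genes tested, 32 had negative differences with a median of -0.13, and at an unadjusted p under 0.05 there were 2 lower and 1 higher. Without overlap, 1 was higher and 1 lower, Mcm10 (0.24) and Gins3 (-0.22), both named after their values were seen. The brightest probes were those of the clamp loader subunit Rfc2, with a difference of -0.06 ± 0.10 (SE), and of Dut, which clears dUTP, with -0.24 ± 0.17 (SE). Of 36 other mitosis genes tested, 27 were negative with a median of -0.16, and 8 were lower at an unadjusted p under 0.05 with 0 higher. The checkpoint protein Bub3 and the condensin subunit Ncapd2 differed by -0.11 ± 0.10 and 0.03 ± 0.12 (SE). The groups did not overlap for 3 of these genes, all lower, which are named here after their values were seen: Pbk (-0.96), Spc24 (-0.52) and Ect2 (-0.40), with limma adjusted p of 0.402, 0.495 and 0.344.

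The 27 other cyclins, kinases and E2F or retinoblastoma family genes had a median of -0.08, with 1 higher and 1 lower at an unadjusted p under 0.05. Cdkn2d and Ccng2 differed by -0.30 ± 0.14 and -0.07 ± 0.24 (SE). Without overlap, 1 was higher and 1 lower, Cdk6 (0.36) and Cdkn1c (-0.38), both named after their values were seen. The 9 genes of the p53 list, its targets and Trp53 itself, had a median of -0.01 with none past an unadjusted p of 0.05. Of these, Sesn1 and Phlda3 differed by -0.13 and -0.12.

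The sonic hedgehog pathway had 11 genes tested, with a median of -0.09. The signal transducer Smo and the co-receptor Boc differed by 0.12 ± 0.15 and -0.14 ± 0.12 (SE). Hhip, a membrane protein that binds and traps hedgehog and is itself a pathway target, is named, with Gli1 and Ptch1, after the values were seen. It read -2.71, -2.64, -2.64 and -2.57 in Npc1-/- and -2.36, -2.01, -1.93 and -1.97 in wild type. The groups did not overlap and differed by -0.57 ± 0.11 (SE), with limma adjusted p = 0.075, just outside the threshold. Gli1 and Ptch1, targets of the same pathway, differed by -0.20 and -0.09 (adjusted p = 0.753 and 0.948).

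Granule lineage genes beyond the members had a median of -0.22 over 14 tested, 13 of them negative, with 3 lower and 0 higher at an unadjusted p under 0.05. Cbln1, a secreted synapse organiser of granule neurons, differed by -0.21 ± 0.14 (SE), and the transcription factor Zic1 by -0.26 ± 0.12 (SE). The list includes genes of postmitotic granule neurons, such as Cbln1, so its median does not describe precursors alone.

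Markers of other cells were read beside these values, and their part in the result was not tested. All 7 oligodendrocyte precursor markers were above background on all 8 arrays. None was called, 3 were lower at an unadjusted p under 0.05 (against 2.31% of all genes), and their summed level (log2 of the sum of signals) was 4.42 to 4.61 in Npc1-/- and 4.73 to 5.19 in wild type. Their median deviation by array was -0.17, -0.09, -0.21 and 0.01 in Npc1-/- and -0.04, 0.42, -0.03 and 0.26 in wild type, highest on wild-type replicate 2. Gpr17 and Olig1, of that list, differed by -0.40 ± 0.12 and -0.38 ± 0.14 (SE). The 5 markers of myelinating oligodendrocytes had a median of -0.57, with 0 called and 3 lower at an unadjusted p under 0.05 (again against 2.31%), and summed to 7.49 to 7.78 in Npc1-/- and 7.79 to 8.19 in wild type. Mbp and Mag differed by -0.19 ± 0.12 and -0.57 ± 0.16 (SE).

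Microglia and macrophage markers went the other way, with 2 of 8 called higher, against 0.734% of all genes. These were Cd68 (2.08 ± 0.13 (SE)) and Ptprc (0.93 ± 0.14 (SE)). The list had a median of 0.54 and sums of 2.26 to 2.68 in Npc1-/- against 1.59 to 2.04 in wild type. The remaining lists had 0 genes called. Their sums overlapped between genotypes: 3.67 to 3.78 and 3.49 to 3.76 for endothelium, 7.69 to 7.79 and 7.65 to 7.94 for astrocytes and Bergmann glia, and 7.59 to 7.80 and 7.71 to 8.04 for Purkinje cells. Their median differences were -0.08, 0.00 and -0.21. By the brightest probes, Cldn5 and Flt1 of the endothelium list differed by -0.02 ± 0.13 and 0.28 ± 0.14 (SE). Aldoc and Slc1a3, the brightest of the astrocyte and Bergmann glia list, differed by 0.00 ± 0.10 and -0.14 ± 0.12 (SE). Gfap, the filament protein of reactive astrocytes, is named after its values were seen: it differed by 1.08 ± 0.19 (SE), with groups that did not overlap and limma adjusted p = 0.052. The Purkinje genes Itpr1 and Calb1 differed by -0.03 ± 0.12 and -0.22 ± 0.14 (SE). Choroid plexus and ependyma markers summed to 0.73 to 2.93 and 1.95 to 2.48, with Npc1-/- replicate 3 lowest, and Ttr and Folr1 differed by -0.35 ± 0.66 and -0.06 ± 0.58 (SE). No marker found on the arrays was below background on all 8 arrays.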

How the data were processed

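The deposited intensity values come from Agilent Feature Extraction 9.5 (the submitters' processing notes name it), and the processed signal is background-subtracted within each array, per the file headers. Flags for detection, saturation and outliers are further deposited columns. Control spots were left out, outlier-flagged spots set to missing (74 to 115 per array; no spot was saturated), and log2 signals were centred on each array's 75th percentile. Symbols were updated through a RefSeq table, 23075 of 41174 probes by accession, 6582 by symbol and 3077 by synonym. Genes with a probe well above background on at least 4 arrays entered a moderated two-sided test on genotype alone (limma 3.58.1, run in R 4.3.3), with Benjamini-Hochberg adjustment over all 17983 genes at a threshold of 0.05. The fit was tested on simulated data. The members and all lists were chosen with earlier results of these data known. All 36 members are accounted for; of each other list, called genes (up to 3) or the 2 with the highest mean signal are named, and Npc1; other names were added after their values were seen, as the text says. Of 4 slides, scanned over 2 days, 3 carried both genotypes. Same-numbered arrays did not deviate together (r from -0.445 to 0.201), so the numbers were not treated as pairs. Alternatives were other scalings, background correction, filters, probe averaging, blocks, array weights and leaving out each array. The Illumina arrays of the series were not used here, because their probe numbers are not paired with genes. The labels give no sex. A gene of 1 marker list is not reported here. Plots were drawn with matplotlib 3.10.9. Precision is limited by having 4 arrays per genotype.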

Additional observations from a re-analysis of the deposited data

Results flagged for a closer look

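In 2 of 56 groups of 4 arrays (28 members in each genotype), 1 array stood far from the other 3 by Dixon's ratio, which chance alone does in about 1 in 20 groups. Pcna read 3.19 on wild-type replicate 3, against 2.66 to 2.71 on the other wild-type arrays (ratio 0.911). Nusap1 read -2.60 on wild-type replicate 2, against -5.00 to -4.65 on the others (ratio 0.854).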

How the results depend on the processing

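No member was called under any of the 19 alternatives, with a lowest adjusted p of 0.115, and none of the member probes in the fits by probe. Of 530 comparisons of a member's difference with its alternatives, 515 kept the sign and the side of the threshold, and 22 of the 28 members kept their sign throughout. The 15 reversals fell in 6 members with differences near 0 or dim signals, and their cause was not tested. With quantile normalization Mcm7 became 0.012. Rrm2 became -0.030 with normexp and quantile normalization and -0.0029 with normexp and the 75th percentile. Ccne1 became 0.0022 as a mean over probes. With the slide block Ccna2 became 0.0051 and Birc5 0.019, and with the scan day block Ccna2 became 0.015. Dcx became -0.011 with array weights. Leaving out 1 array at a time gave -0.10 to 0.054 for Mcm7 (positive without wild-type replicate 3), -0.11 to 0.044 for Ccna2 (positive without wild-type replicate 3 or Npc1-/- replicate 1), -0.089 to 0.030 for Birc5 (positive without wild-type replicate 4, Npc1-/- replicate 1 or Npc1-/- replicate 3) and -0.019 to 0.16 for Dcx (negative without wild-type replicate 1).

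The 138 genes called over the array became 87 with quantile normalization, 59 with no filter (more genes tested), 89 with detection on all 8 arrays (fewer genes tested), 38 with the slide block, 27 with the replicate block and 281 with array weights, and 55 to 148 when 1 array was left out. The 7 members lower at an unadjusted p under 0.05 (against 2.31% of all genes) became 3 with normexp and the 75th percentile (2.76%), 3 with the slide block (1.71%), 10 with array weights (6.8%) and 1 to 8 without 1 array (1.25% to 4.21%). The 5 members with non-overlapping lower groups (against 1.95% of all genes) became 3 with normexp and quantile normalization (1.99%), 1 with normexp and the 75th percentile (2.16%) and 5 to 8 without 1 array, where the share of all genes rose too (2.37% to 6.06%). The mitosis median of -0.27 became -0.37 with no filter and -0.38 to -0.18 without 1 array, and the replication median of -0.17 ran from -0.22 to -0.13. In the other cell cycle, hedgehog, granule lineage and p53 lists, 1 gene was called with array weights and 0 to 1 without 1 array; in both cases it was Hhip, the second time without wild-type replicate 1. Dim mitosis probes near the background limit what could be compared.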
